A study of Mus musculus with 8 samples.

Results

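The enzymes that turn threonine and serine into glycine and single-carbon units were followed in mouse embryonic stem (ES) cells before and after retinoic acid (RA). The group was chosen by gene name and holds 10 enzymes, *Tdh*, *Gcat*, *Gldc*, *Shmt1*, *Shmt2*, *Mthfd1*, *Mthfd2*, *Phgdh*, *Psat1* and *Psph*, out of 36406 gene names on the array. Every spot that was not a control and carried one of these names was taken, which gave 15 of the 55681 probes. The genes *Tdh*, *Shmt1*, *Phgdh*, *Psat1* and *Psph* each had 2 probes, and all 15 probes were well above background on all 8 arrays.

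Threonine is broken down in the mitochondria of mouse cells by threonine dehydrogenase (*Tdh*) and glycine C-acetyltransferase (*Gcat*), which together yield glycine and acetyl-CoA, and mouse ES cells are known for their high *Tdh* activity and their need for threonine. Glycine is split by the glycine cleavage system, whose decarboxylase is *Gldc*, or is exchanged with serine by the hydroxymethyltransferases *Shmt1* (cytosolic) and *Shmt2* (mitochondrial). Glycine cleavage and the step from serine to glycine both load folate with a carbon unit. The folate enzymes *Mthfd1* and *Mthfd2* interconvert these units for purine, thymidylate and methionine synthesis, while *Phgdh*, *Psat1* and *Psph* make serine from a glycolytic intermediate in consecutive steps.

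The cells were E14Tg2A.4, an established mouse ES cell line. Untreated cells were self-renewing cultures, and the RA-treated cells had received 1 µM all-trans RA for 72 h, given with the aim of starting neuronal differentiation. Each condition had 4 biological replicates of this 1 line, measured as total RNA on 1-colour arrays. RA was given in medium without leukemia inhibitory factor, so the effect of RA and that of leaving out this factor cannot be told apart.

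Of the 59305 spots per array that were not controls, 33629 to 37175 were well above background in untreated cells and 35034 to 35780 after RA, and no spot was saturated. The 11 ES cell markers, among them *Pou5f1* and *Esrrb*, were all above background and all fell, by a median log2 fold change of -5.54. Their summed level, in units of the 75th percentile of each array, went from 530 to 729 on the untreated arrays to 53.5 to 129 after RA. Of 8 RA response genes, 7 rose. All 12 primitive endoderm markers rose (summed level 41.5 to 56.6 before and 143 to 182 after RA), as did 7 of 9 fibroblast and feeder markers (1.41 to 2.65 before and 31.6 to 51.7 after RA), while of 9 neural markers 3 rose and 2 fell. Not above background on any untreated array were *Hoxb1* of the RA response genes, *Ttr* of the primitive endoderm markers, *Postn* and *Lum* of the fibroblast and feeder markers, and *Dcx* and *Neurog2* of the neural markers. The part of these other cell types in the results below was not tested, and in such bulk samples fewer cells of a type and less RNA per cell cannot be told apart.

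RA treatment was accompanied by lower signals of nearly the whole group. *Tdh* was 66.1-fold lower and *Gldc* 4.69-fold lower, 6 further enzymes fell between 1.60-fold and 2.24-fold, and *Phgdh*, the first enzyme of serine synthesis, rose 1.53-fold. Values are log2 signals relative to the 75th percentile of the array, and a gene was taken by its brightest probe. A gene was called when its adjusted p was under 0.05 (limma, Benjamini-Hochberg over all probes) and its fold change above 1.5. By this rule 1 of the 10 enzymes was called higher and 8 lower, while 18.1% of the 20388 genes well above background on all 8 arrays were called higher and 27.5% lower. Over all 36406 gene names these shares were 13.9% and 22.1%. With the replicate number as a block, 1 enzyme was called higher and 6 lower, *Gcat* and *Mthfd2* no longer being called.

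The signals of the 2 conditions did not overlap for 9 enzymes, *Phgdh* being higher and 8 others lower, against 21% of the genes above background on all 8 arrays that were higher without overlap and 34% that were lower. Over all gene names the latter shares were 15.2% and 25.2%. The median log2 fold change of the 10 enzymes was -0.85, and that of all genes was -0.28. In the main setting the median of the enzymes thus stood 0.57 below that of all genes on the log2 scale. Quantile normalization, which gives all arrays the same distribution, left a median of -0.0026 over all probes by construction. Another background correction with the same percentile scaling left -0.21. The part of the scaling in the median of all genes was not tested.

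**Figure D1:**
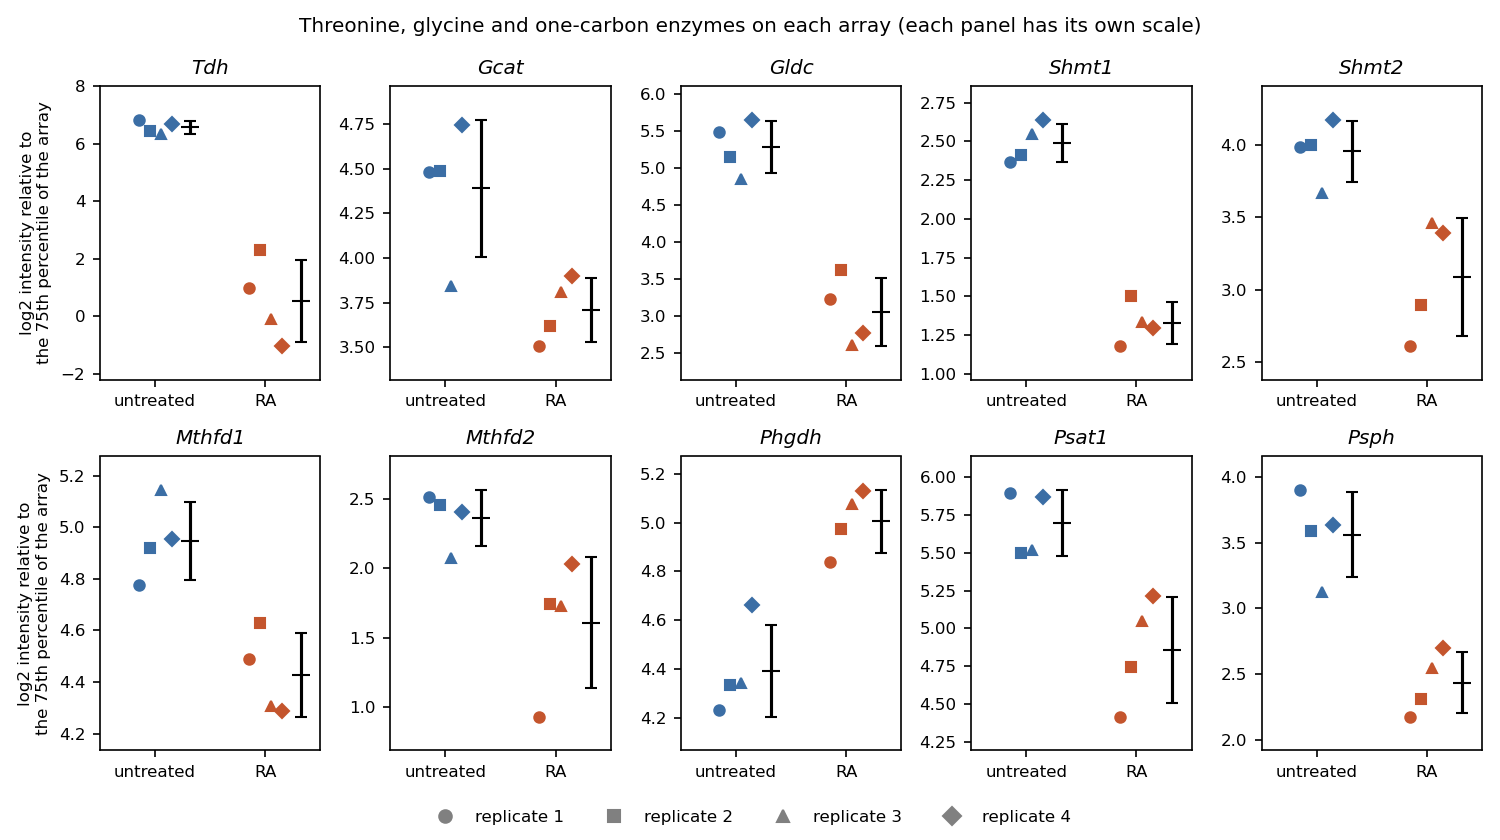
Log2 signal of the brightest probe of each enzyme on each of the 8 arrays, relative to the 75th percentile of the array, with the mean and SD of 4 replicates beside the points. Each panel has its own scale. *Tdh* spans 6.36 to 6.83 in untreated cells and -1.04 to 2.30 after RA, *Phgdh* is the enzyme whose RA points lie above the untreated ones, and *Gcat* is the enzyme whose conditions overlap.

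Threonine breakdown was represented by its successive enzymes. The 2 probes for *Tdh* lie at chr14:64111327-64111386 and chr14:64111366-64111425 on the minus strand (mm9) and share 21 bases, so that they are not independent measurements. The shared stretch is printed because it is the part of the *Tdh* transcript that both probes cover, while the rest of each probe is its own.

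*Tdh*, shared by both probes, chr14:64111366-64111386 (mm9, minus strand): cacaaaggccagagaaatgaa

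In untreated replicates 1 to 4 the log2 signal of *Tdh* was 6.83, 6.44, 6.36 and 6.70, and in RA replicates 1 to 4 it was 0.97, 2.30, -0.09 and -1.04. The highest RA array, replicate 2, lay far below the lowest untreated array. The processed intensities behind these values were 88310, 74535, 83972 and 77154 before and 2291, 4682, 913 and 504 after RA.

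The log2 fold change of *Tdh* was -6.05 ± 0.61 (SE, limma, adjusted p = 9.12e-05), with a 95% interval of -7.44 to -4.66. Leaving out RA replicate 2 gave -6.63, and leaving out each array in turn gave -6.63 to -5.52. Of the 36406 gene names, 43 had a lower log2 fold change. The second probe of *Tdh* gave -6.14 ± 0.62 (SE, limma, adjusted p = 9.31e-05). The RA cultures differed widely among themselves, with an SD of 1.43 on the log2 scale against 0.22 in untreated cells. The change was -6.63 on slide 1 and -5.47 on slide 2, where each slide held 2 arrays of each condition.

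*Gcat*, the enzyme that follows *Tdh*, changed far less. Its log2 signal was 4.48, 4.49, 3.84 and 4.75 in untreated replicates 1 to 4 and 3.51, 3.62, 3.81 and 3.90 after RA. Untreated replicate 3 was within the range of the RA arrays, and the other untreated arrays were above it. *Gcat* thus had a log2 fold change of -0.68 ± 0.21 (SE, limma, adjusted p = 0.0316), or 1.60-fold lower. The call was lost when the replicate number was taken as a block (adjusted p = 0.0528), under quantile normalization (log2 fold change -0.51, limma adjusted p = 0.0566), and when any array but untreated replicate 3 or RA replicate 4 was left out (limma adjusted p up to 0.0871).

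The promoter of *Gcat* is shown because it was the only one among 9 enzymes with a RefSeq promoter in the table used here to hold any of 3 motifs searched on both strands. The windows ran from 250 bases before to 50 bases after the transcription start. The E-box letters CACGTG, in capitals, lie 3 to 8 bases after the start and occurred in 7.15% of all 32851 promoters.

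*Gcat* promoter, chr15:79030822-79030881 (GRCm38.p6, plus strand, 52 bases before to 8 after the start): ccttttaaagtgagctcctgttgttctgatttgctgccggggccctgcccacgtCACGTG

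The amino acid response core TGATGCAA was in none of the 9 and in 0.895% of all promoters, and the retinoic acid receptor element, AGGTCA repeated directly after any 5 bases, was in none of the 9 and in 0.00913% of all. These are matches of letters in a short window and no measurement of binding.

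Among the 10 enzymes, the largest change after that of *Tdh* was in glycine cleavage. *Gldc*, the decarboxylase of the system, is probed at chr19:30172983-30173042 (mm9). Its log2 signal was 5.49, 5.15, 4.85 and 5.65 in untreated replicates 1 to 4 and 3.23, 3.62, 2.61 and 2.77 after RA. All 4 RA arrays were below all untreated arrays by more than the spread within either condition. *Gldc* changed by a log2 fold change of -2.23 ± 0.27 (SE, limma, adjusted p = 0.000235), a decrease that 4.66% of all gene names exceeded. Of the genes above background on all 8 arrays, 4.85% were called lower and at least 4-fold.

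The other proteins of the glycine cleavage system did not move as one. *Amt*, its aminomethyltransferase, fell by 1.82 on the log2 scale (SE 0.27, limma adjusted p = 0.000786). *Gcsh*, the carrier protein, fell by 0.93 (SE 0.14, limma adjusted p = 0.000757). *Dld*, the dehydrogenase shared with other mitochondrial complexes, had a log2 fold change of 0.09 ± 0.17 (SE, limma, adjusted p = 0.673).

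Both serine hydroxymethyltransferases fell. *Shmt1*, the cytosolic enzyme, was read by probes that lie at chr11:60603099-60603158 and chr11:60620453-60620512 (mm9, minus strand) and start 1190 bases apart in the transcript. Their sequences are given because they report on separate stretches of 1 transcript and fell alike.

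*Shmt1*, brightest probe: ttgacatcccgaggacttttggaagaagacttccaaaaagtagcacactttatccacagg
*Shmt1*, second probe: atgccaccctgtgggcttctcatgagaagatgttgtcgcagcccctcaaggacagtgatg

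The brightest probe of *Shmt1* gave 2.37, 2.41, 2.55 and 2.64 in untreated replicates 1 to 4 and 1.18, 1.50, 1.33 and 1.29 after RA. The conditions were well apart and both had a small spread (SD 0.12 and 0.13). This probe had a log2 fold change of -1.16 ± 0.14 (SE, limma, adjusted p = 0.000228). The second probe gave -0.96 ± 0.20 (SE, limma, adjusted p = 0.00452), again without overlap between conditions.

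*Shmt2*, the mitochondrial counterpart, had log2 signals of 3.99, 4.00, 3.66 and 4.17 in untreated replicates 1 to 4 and 2.61, 2.89, 3.46 and 3.39 after RA. RA replicates 3 and 4 came close to untreated replicate 3 but did not reach it. Between the conditions the log2 fold change was -0.86 ± 0.22 (SE, limma, adjusted p = 0.0144).

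Of the folate enzymes, *Mthfd1*, a cytosolic protein that carries successive folate reactions, was the single member not called. Its log2 signal was 4.78, 4.92, 5.14 and 4.95 in untreated replicates 1 to 4 and 4.49, 4.63, 4.31 and 4.29 after RA. The conditions did not overlap, and the log2 fold change was -0.52 ± 0.15 (SE, limma, adjusted p = 0.0228), which is 1.43-fold and so below the fold threshold. Without RA replicate 2 it was -0.59 (limma adjusted p = 0.0251) and was called.

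*Mthfd2*, the mitochondrial dehydrogenase and cyclohydrolase, had log2 signals of 2.51, 2.45, 2.07 and 2.41 in untreated replicates 1 to 4 and 0.93, 1.75, 1.73 and 2.03 after RA. RA replicate 4 lay just under untreated replicate 3, and RA replicate 1 was far below the other RA arrays. *Mthfd2* changed by a log2 fold change of -0.75 ± 0.24 (SE, limma, adjusted p = 0.0376). The call was lost with the replicate number as a block (adjusted p = 0.0632), under quantile normalization (log2 fold change -0.66, limma adjusted p = 0.0684) and in 6 of 8 fits that each left out 1 array, all but those without untreated replicate 3 or RA replicate 4, with limma adjusted p up to 0.0881 and a log2 fold change of -0.53 without RA replicate 1.

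Serine synthesis was split. *Phgdh*, which takes the carbon out of glycolysis, was the enzyme that rose. Its log2 signal was 4.23, 4.33, 4.34 and 4.66 in untreated replicates 1 to 4 and 4.84, 4.97, 5.08 and 5.13 after RA, and every RA array was above every untreated array. *Phgdh* changed by a log2 fold change of 0.61 ± 0.15 (SE, limma, adjusted p = 0.0111), or 1.53-fold, and the second probe gave 0.69 ± 0.17 (SE, limma, adjusted p = 0.0106). Its fold change lay so near the threshold that the call was lost without untreated replicate 1 (log2 fold change 0.56, limma adjusted p = 0.0287) or without RA replicate 4 (0.57, limma adjusted p = 0.0404). The scaling alternatives gave up to 0.83.

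*Psat1*, the aminotransferase that follows, had log2 signals of 5.90, 5.50, 5.52 and 5.87 in untreated replicates 1 to 4 and 4.42, 4.74, 5.05 and 5.21 after RA. The conditions did not overlap on this probe. Its log2 fold change was -0.84 ± 0.21 (SE, limma, adjusted p = 0.0115). A dimmer probe at chr19:15991586-15991645 (mm9, minus strand), 1476 bases upstream in the transcript, gave -0.76 (limma adjusted p = 0.0380), with 1.14, 1.52, 1.87 and 2.10 before and 0.54, 0.74, 1.18 and 1.13 after RA, and there RA replicate 3 lay above untreated replicate 1. It is printed because it is the one second probe on which the conditions overlapped.

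*Psat1*, second probe: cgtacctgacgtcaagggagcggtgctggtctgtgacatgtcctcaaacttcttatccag

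*Psph*, the phosphatase of the last step, had log2 signals of 3.90, 3.59, 3.12 and 3.64 in untreated replicates 1 to 4 and 2.18, 2.31, 2.55 and 2.69 after RA. Untreated replicate 3 was the lowest of its condition and still above all RA arrays. For *Psph* the log2 fold change was -1.13 ± 0.20 (SE, limma, adjusted p = 0.00219), and the second probe gave -1.07 ± 0.19 (SE, limma, adjusted p = 0.00242).

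**Figure D2:**
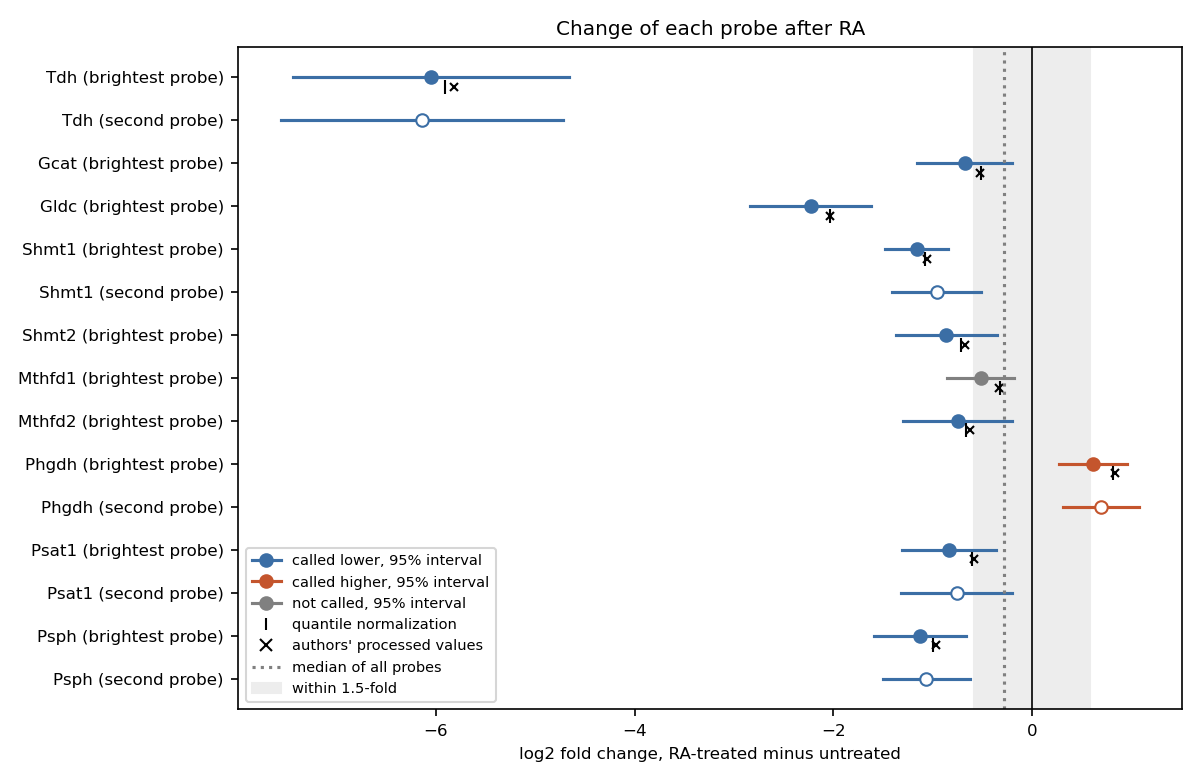
Log2 fold change, RA-treated minus untreated, of all 15 probes with 95% intervals from limma. Filled points are the brightest probe of each gene and open points the second probe, ticks and crosses are the values under quantile normalization and from the authors' processed table, the dotted line is the median of all probes (-0.28), and the grey band marks changes within 1.5-fold. Both probes of each of the 5 genes with 2 probes were called in the same direction.

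For the 5 genes with 2 probes, the second probe differed from the brightest by -0.09 to 0.20 in log2 fold change, and each of these genes was called in the same direction by both. By compartment, all 5 mitochondrial enzymes (*Tdh*, *Gcat*, *Gldc*, *Shmt2* and *Mthfd2*) were called lower, with a median log2 fold change of -0.86, and 3 of them were called lower with the replicate number as a block. Of the 5 cytosolic enzymes (*Shmt1*, *Mthfd1*, *Phgdh*, *Psat1* and *Psph*) 3 were called lower and 1 higher, with a median of -0.84. Among all genes above background on the 8 arrays, 27.5% were called lower and 18.1% higher. Within each of the 2 slides every enzyme changed in the direction of the whole comparison, with log2 fold changes of -0.46 and -0.90 for *Gcat* and of 0.70 and 0.53 for *Phgdh* on slides 1 and 2.

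Unequal change within a step or between consecutive steps was read from the log2 ratio of the 2 brightest probes on the same array, which no shift of a whole array can alter. Quantile normalization is no such shift and gave 0.37 for *Shmt2* over *Shmt1*, -0.34 for *Mthfd2* over *Mthfd1* and 0.39 for *Psat1* over *Psph*, against 0.30, -0.23 and 0.29 below. Only the change of such a ratio is read, since the level of one probe cannot be set against another. The 6 pairs compared were tested with an exact two-sided permutation test over the 8 arrays, whose smallest possible p is 0.0286, and p-values were adjusted over the 6 pairs.

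The log2 ratio of *Phgdh* over *Psat1* was -1.66, -1.16, -1.18 and -1.21 in untreated replicates 1 to 4 and 0.42, 0.23, 0.03 and -0.09 after RA. The difference, RA-treated minus untreated, was 1.45 ± 0.16 (SE), with 1.59 and 1.31 on the slides (exact permutation p = 0.0286, adjusted p = 0.0571). For *Tdh* over *Gcat* the difference was -5.37 ± 0.80 (SE), with -6.17 and -4.56 on the slides, and for *Gldc* over *Shmt2* it was -1.37 ± 0.42 (SE), with -1.35 and -1.38 on the slides, each with the same exact p and adjusted p. For these 3 pairs the conditions did not overlap and the p was the smallest this design allows, but none of the 6 pairs passed 0.05 after adjustment.

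For the other 3 pairs the conditions overlapped. The difference for *Shmt2* over *Shmt1* was 0.30 ± 0.23 (SE, exact permutation p = 0.286, adjusted p = 0.343), and its RA arrays fell into a lower pair (1.43 and 1.39 in replicates 1 and 2) and a higher pair (2.13 and 2.10 in replicates 3 and 4) on either side of most untreated arrays. Without untreated replicate 3, RA replicate 3 or RA replicate 4 it was 0.19, 0.18 and 0.19. For *Mthfd2* over *Mthfd1* it was -0.23 ± 0.33 (SE, exact permutation p = 0.543, adjusted p = 0.543), and between -0.42 and 0.01 when 1 array was left out, turning its sign without RA replicate 1. *Psat1* over *Psph* gave 0.29 ± 0.13 (SE, exact permutation p = 0.0571, adjusted p = 0.0857).

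**Figure D3:**
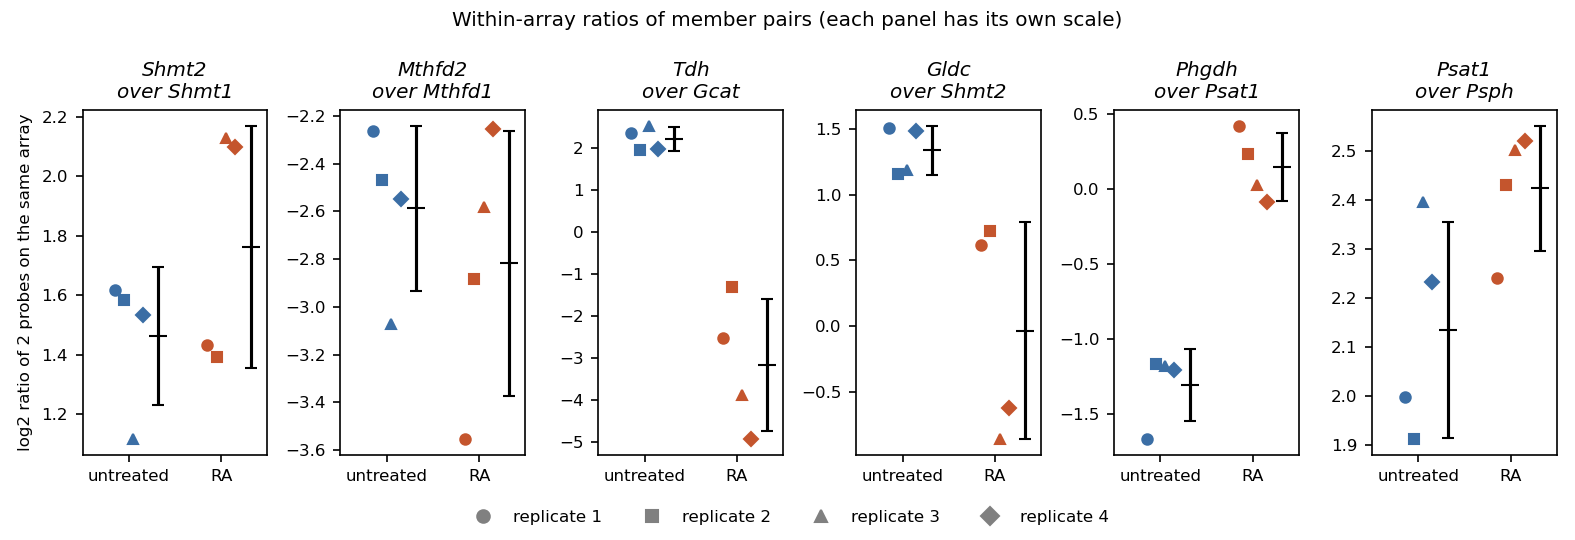
Log2 ratio of the brightest probes of 2 enzymes on the same array for 6 pairs, with the mean and SD of 4 replicates beside the points; each panel has its own scale. *Phgdh* over *Psat1* spans -1.66 to -1.16 in untreated cells and -0.09 to 0.42 after RA, and the isozyme pairs *Shmt2* over *Shmt1* and *Mthfd2* over *Mthfd1* overlap between conditions.

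The enzymes differed in which RA culture kept the most signal. RA replicate 2 was highest for *Tdh*, *Gldc*, *Shmt1* and *Mthfd1*, and RA replicate 4 was highest for *Gcat*, *Mthfd2*, *Phgdh*, *Psat1* and *Psph*. RA replicate 1 was the lowest RA array for 7 of the 10 enzymes (*Gcat*, *Shmt1*, *Shmt2*, *Mthfd2*, *Phgdh*, *Psat1* and *Psph*), while it was the lowest for 22.1% of the 20388 genes above background on all arrays. Replicate 2 was highest for 32.2% of those genes and replicate 4 for 23.1%.

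RA replicate 2, the highest RA array for *Tdh*, was also the highest for 9 of the 11 ES cell markers. RA replicate 1, the lowest RA array for the serine synthesis enzymes, was also the lowest for 7 of 11 genes above background on all arrays in the list of *Atf4* and the amino acid response. The part of these differences between cultures in the results was not tested.

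The 5 genes whose profile over the 8 arrays lay nearest to *Tdh*, among 13806 candidates, were *Nr0b1*, *Foxd3*, *Esrrb*, *Pou5f1* and *Fgf4*. The root mean square difference from *Tdh*, after each gene's own mean was removed, was 0.28 for *Nr0b1*, 0.30 for *Foxd3*, 0.30 for *Esrrb*, 0.32 for *Pou5f1* and 0.36 for *Fgf4* on the log2 scale. *Nr0b1*, *Foxd3*, *Esrrb* and *Pou5f1* encode transcription factors of the ES cell state and *Fgf4* a growth factor made by ES cells. *Pou5f1*, *Esrrb* and *Fgf4* are also among the 11 ES cell markers.

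*Esrrb* had log2 signals of 7.01, 6.75, 5.92 and 6.74 in untreated replicates 1 to 4 and 1.00, 2.44, 0.40 and -0.43 after RA. As for *Tdh*, replicate 2 was the highest RA array and replicate 4 the lowest, a likeness that the choice of these genes by their profile brings with it. The log2 fold changes were -6.14 ± 0.52 for *Nr0b1*, -5.75 ± 0.55 for *Esrrb*, -5.54 ± 0.61 for *Pou5f1* and -6.08 ± 0.73 for *Fgf4* (SE, limma, adjusted p at most 0.000239). *Foxd3* was well above background on 2 of the 4 RA arrays, so no fold change is given for it, its lowest RA values have no order, and its distance from *Tdh* and its place among the 5 rest in part on values not above background.

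**Figure D4:**
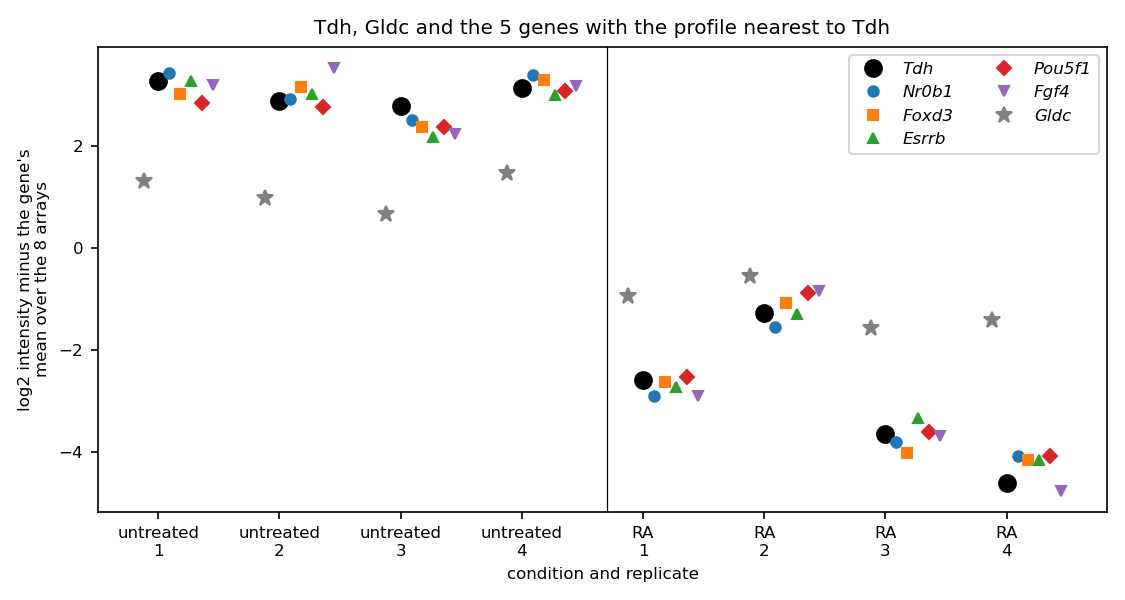
Log2 signal minus the gene's own mean over the 8 arrays, for *Tdh*, the 5 genes with the nearest profile and *Gldc*, by condition and replicate. The 5 genes were chosen for lying close to *Tdh*, which is highest in RA replicate 2 and lowest in RA replicate 4, while the points of *Gldc* span a narrower range.

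The genes around this network were counted by lists. The 8 lists hold 92 genes on the array when each is counted once, of which 9 were called higher and 37 lower, with a median log2 fold change of -0.56. The shares over all gene names, 13.9% higher and 22.1% lower, and over genes above background on all 8 arrays, 18.1% and 27.5%, are the background for each of these lists. Among 14 genes of serine and glycine interconversion beyond the 10 enzymes, 2 rose and 5 fell, with a median of -0.24, which is 0.04 above that of all genes. *Pipox*, a peroxisomal oxidase of sarcosine and pipecolic acid, fell from a log2 signal of 2.89 to -2.16, a log2 fold change of -5.05 ± 0.54 (SE, limma, adjusted p = 0.000121). *Srr*, which makes D-serine, rose by 2.79 ± 0.25 (SE, limma, adjusted p = 4.92e-05). *Dao* was called lower but was above background on only 1 untreated array, and *Sds*, *Sardh* and *Alas2* were not above background on any untreated array.

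Of 14 further genes of the folate cycle 1 rose and 4 fell (median -0.56), a share of lower genes near that of all genes above background. *Mthfd2l*, a mitochondrial relative of *Mthfd2*, rose by 1.84 ± 0.19 (SE, limma, adjusted p = 9.58e-05), opposite to *Mthfd2*. *Fpgs*, which adds glutamates to folate and holds it in the cell, changed by -1.15 ± 0.16 (SE, limma, adjusted p = 0.000589). *Qdpr*, which regenerates tetrahydrobiopterin, changed by -1.36 ± 0.18 (SE, limma, adjusted p = 0.000369). Of 5 folate transport genes, the mitochondrial carrier *Slc25a32* was the one called, at -0.83 ± 0.14 (SE, limma, adjusted p = 0.00133).

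The methionine cycle and transsulfuration, which receive methyl groups and serine from this network, had 3 genes higher and 8 lower of 16 on the array (median -0.50). The largest changes were in *Cbs*, which joins serine to homocysteine, and *Cth*, which releases cysteine from the product. *Cbs* changed by -3.10 ± 0.20 (SE, limma, adjusted p = 1.02e-05) and *Cth* by -2.56 ± 0.18 (SE, limma, adjusted p = 1.38e-05). *Mat2a*, which makes S-adenosylmethionine, changed by -1.79 ± 0.22 (SE, limma, adjusted p = 0.000284).

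Threonine has other uses than the *Tdh* route. Of 5 genes for charging threonine onto tRNA or breaking it down elsewhere, the synthetases *Tars* and *Tars2* fell and *Sdsl* rose (median -0.07, which is 0.21 above that of all genes). *Tars* changed by -1.15 ± 0.14 (SE, limma, adjusted p = 0.000307), *Tars2* by -0.84 ± 0.14 (SE, limma, adjusted p = 0.00134) and *Sdsl*, a relative of serine dehydratase, by 1.55 ± 0.16 (SE, limma, adjusted p = 0.00011).

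Of 12 genes in the list of *Atf4*, a transcription factor of the amino acid response, and genes of that response, 5 fell and none rose at the threshold (median -0.79). At an unadjusted p under 0.05 (limma) there were 9 in either direction. They included *Slc7a11*, not above background on any array. *Eif2ak4*, also among them, rose by 0.54 ± 0.15 (SE, limma, adjusted p = 0.0188), under the fold threshold. The share of all genes at this unadjusted p was not counted, so the 9 have no background to be read against. *Atf4* changed by -0.86 ± 0.17 (SE, limma, adjusted p = 0.00365), and *Asns*, the asparagine synthetase, by -0.71 ± 0.15 (SE, limma, adjusted p = 0.00597). *Trib3* changed by -2.32 ± 0.41, *Ddit3* by -2.50 ± 0.20 and *Sesn2* by -1.08 ± 0.17 (SE, limma, adjusted p at most 0.00211). The log2 fold change of *Chac1* was -1.36 ± 0.49 (SE, limma, adjusted p = 0.0556).

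**Figure D5:**
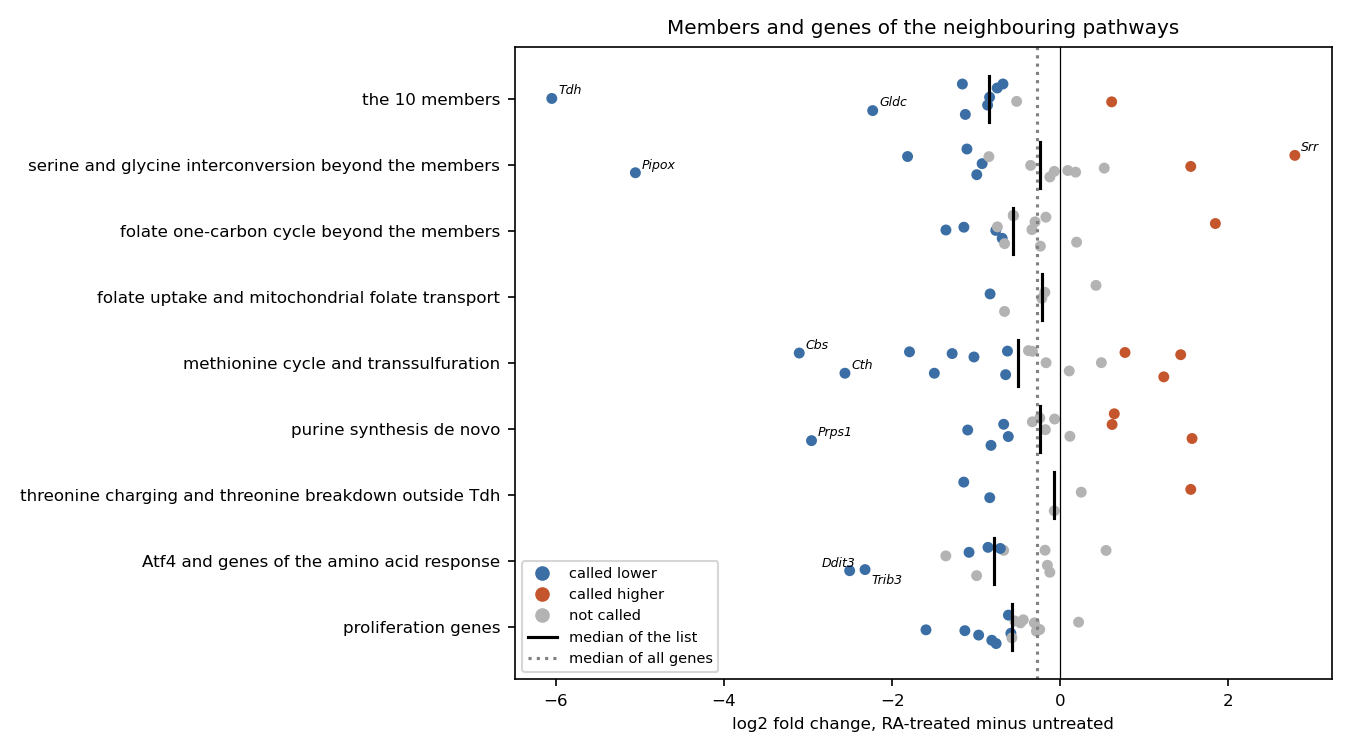
Log2 fold change, RA-treated minus untreated, of the 10 enzymes and of the genes of 8 neighbouring lists, 1 point per gene by its brightest probe, with a short black line at the median of each list and the dotted line at the median of all genes (-0.28). *Tdh* at -6.05 and *Pipox* at -5.05 are the lowest points and *Srr* at 2.79 the highest.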

How the data were processed

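Total RNA from 4 untreated and 4 RA-treated cultures was hybridized to SurePrint G3 8x60K arrays with Cy3. Per the file headers, the scanner output that the authors deposited came from Agilent Feature Extraction 10.7.3.1 and holds a processed intensity already corrected for background, the raw intensity of spot and background, quality flags and mm9 positions. The deposited log2 table of the same spots, which has 1 distribution on all arrays, served as an alternative.

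Processed intensities were put on the log2 scale in R 4.3.3 and the 75th percentile of each array (59305 spots) was subtracted. Control spots (3671) and outlier spots (124 to 145 per array) were removed and spots of a probe averaged. All 55681 probes were fitted with limma 3.58.1 (lmFit, eBayes). A gene is given by its brightest probe, judged by the mean over both conditions. Of the gene names, 18913 are symbols of the reference table. The number of arrays limits the precision.

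Named were all 10 enzymes, for each pathway list the called genes with the 3 largest changes whose conditions do not overlap (marker lists are given by counts), the 5 profiles nearest to *Tdh*, and a few genes chosen after their values were seen (*Gcsh*, *Dld*, *Atf4*, *Asns*, *Chac1*, *Slc7a11*, *Eif2ak4*, *Aurkb*, *Dao*, *Sds*, *Sardh*, *Alas2*, *Postn*, *Lum*, *Hoxb1*, *Ttr*, *Dcx* and *Neurog2*). The enzymes, lists and tests were chosen with earlier results of these data known. The main fit and the exact permutation tests held no block and no pairing. Replicate number was used as a block only as an alternative, for a possible pairing of the cultures. The labels do not say that a number marks a shared culture. Deviations of same-numbered arrays had correlations of 0.104 to 0.189 over 27491 probes above background on all arrays. Other pairs had at most 0.142, so the ranges overlap. Slide was read from the scanner output. *Amd1* of the methionine list and *Map2* of the neural markers were not matched by name, and the promoter of *Tdh* was not used here. Alternatives were quantile normalization, normexp background correction with an offset of 50, both together, the authors' log2 values, a filter on dim probes, slide or replicate number as a block, each array left out in turn, the mean of a gene's probes, and limma's treat against 1.5-fold.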

Additional observations from a re-analysis of the deposited data

Results flagged for a closer look

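In 96 groups of 4 arrays (in each condition the 15 probes of the enzymes, the 6 ratios, the genes named from the pathway lists for their 3 largest changes, and the 5 genes nearest to *Tdh*) the highest or lowest array was set against the others by Dixon's criterion for 4 samples at the 95% level. It was passed in 5 groups, and chance gives about 1 in 20, or 4.8.

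The log2 ratio of *Shmt2* over *Shmt1* was 1.12 in untreated replicate 3 and 1.53 to 1.62 in the other untreated arrays. The log2 ratio of *Phgdh* over *Psat1* was -1.66 in untreated replicate 1 and -1.21 to -1.16 in the others. *Qdpr* had a log2 signal of 3.18 in RA replicate 3 and of 3.42 to 3.46 in the other RA arrays. *Prps1* had a log2 signal of 5.76 in untreated replicate 1 and of 5.42 to 5.45 in the other untreated arrays. *Mcm2* had a log2 signal of 3.52 in RA replicate 1 and of 3.71 to 3.73 in the other RA arrays.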

How the results depend on the processing

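The direction of all 10 enzymes held under every alternative run. *Gcat*, *Mthfd2*, *Phgdh* and *Mthfd1* changed their call as given above. *Gcat* also fell short of 1.5-fold with normexp and quantile normalization together and in the authors' values (log2 fold change -0.52 in both). The other 6 were called under every alternative apart from the treat test, which called fewer enzymes. Against a change of 1.5-fold by limma's treat, 3 enzymes were called lower and 0 higher, with 5728 and 4171 of all probes and 16 list genes lower. Normexp with quantile normalization called 6603 probes and 24 list genes lower, and the authors' values 6583 probes lower. The cause was not tested. Of all called probes, 37.4% were higher in the main setting and 48.4% under quantile normalization, where the median change over all probes was -0.0026 in place of -0.28 on the log2 scale.

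With the replicate number as a block for a possible pairing, 1 enzyme was called higher and 6 lower (*Gcat* and *Mthfd2* were lost). By this block 7223 probes were higher and 12161 lower, with 7 list genes higher and 35 lower. No ratio was below an adjusted p of 0.188 by an exact test over 4 pairs, which cannot give a p under 0.125.

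Leaving out each array in turn, 0 to 1 enzymes were called higher, 6 to 8 lower, 6549 to 7281 probes higher and 10601 to 12676 lower, and 6 to 9 list genes higher and 32 to 40 lower. The ratio of *Mthfd2* over *Mthfd1* ranged from -0.42 to 0.01 and turned to 0.014 without RA-treated replicate 1.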

Other observations

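The purine and proliferation genes were counted above among the 92 list genes and are described here. Of 13 genes of purine synthesis, which draws on glycine and folate carbon units, 3 rose and 5 fell, with a median log2 fold change of -0.24, close to the -0.28 of all genes. *Prps1*, which makes the ribose phosphate donor, changed by -2.96 ± 0.15 (SE, limma, adjusted p = 3.91e-06), and *Ppat*, the first committed enzyme, by -1.10 ± 0.17 (SE, limma, adjusted p = 0.000847). *Adssl1*, an isozyme of adenylosuccinate synthesis known from muscle, rose by 1.57 ± 0.25 (SE, limma, adjusted p = 0.00113).

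Of 15 proliferation genes, 7 fell and 0 rose at the threshold, with a median log2 fold change of -0.57. At an unadjusted p under 0.05 (limma) there were 11 in either direction. The share of all genes at that p was not counted, so the 11 have no background to be read against. *Aurkb* was not above background on any array. The largest changes were in subunits of the replicative helicase. *Mcm5* changed by -1.60 ± 0.13, *Mcm2* by -1.13 ± 0.13 and *Mcm4* by -0.97 ± 0.15 (SE, limma, adjusted p at most 0.00095).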
